A study of Arabidopsis thaliana with 30 samples.

Results

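The JAZ genes of Arabidopsis thaliana encode the repressors of jasmonate signalling, and 10 of them, JAZ1 to JAZ10, were followed through 30 leaf RNA-seq libraries. They were taken by locus identifier (AT1G19180 for JAZ1, AT1G74950 for JAZ2, AT3G17860 for JAZ3, AT1G48500 for JAZ4, AT1G17380 for JAZ5, AT1G72450 for JAZ6, AT2G34600 for JAZ7, AT1G30135 for JAZ8, AT1G70700 for JAZ9 and AT5G13220 for JAZ10) out of the 34262 gene identifiers in the count files. All 10 are in the RefSeq annotation of the TAIR10.1 assembly. Of the 10 genes, 7 lie on chromosome 1 and the rest on chromosomes 2, 3 and 5.

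All plants were of the Col-0 accession, were grown on soil at 22 °C by day and 20 °C by night, and were not given heat. Leaves were taken when the plants bolted, although the series' design text speaks of aboveground tissue. The libraries form 10 groups of 3 full siblings in 4 sets, and each set has its own wild type. At 12 h of light per day, 1 set holds wild type, cue1 and hda6, and a second set holds a separate wild type and sal1. At 16 h, 1 set holds wild type, cue1 and msh1, and a second set holds a separate wild type and hda6. CUE1 imports phosphoenolpyruvate into plastids, HDA6 is a histone deacetylase, SAL1 breaks down PAP, a stress signal that moves from plastids to the nucleus, and MSH1 is a MutS homologue found in plastids and mitochondria. The sources used here give neither the alleles nor the number of independent lines nor the hour of harvest, and each mutant may be 1 line.

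JAZ proteins bind transcription factors such as MYC2 and hold them inactive together with the adaptor NINJA and the corepressor TOPLESS. When leaves are wounded or attacked, the active hormone jasmonoyl-isoleucine brings JAZ proteins to the F-box receptor COI1, they are degraded, and MYC2 and its relatives are released. Since MYC factors also turn on most JAZ genes, JAZ transcripts are widely used as a readout of the pathway, and the newly made repressors close a negative feedback loop. MYC2 is known to bind the G-box, CACGTG.

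To show the DNA in front of the members, the 250 bases upstream of the annotated start were read from the RefSeq TAIR10.1 genome, 5′ to 3′ on the strand of the gene. The 4 members with a G-box in this window are shown first, followed by JAZ10, which like JAZ4 holds none in the 1000 bases upstream. Capitals mark CACGTG, which reads the same on both strands.

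JAZ2, chr1:28150447-28150696, minus strand: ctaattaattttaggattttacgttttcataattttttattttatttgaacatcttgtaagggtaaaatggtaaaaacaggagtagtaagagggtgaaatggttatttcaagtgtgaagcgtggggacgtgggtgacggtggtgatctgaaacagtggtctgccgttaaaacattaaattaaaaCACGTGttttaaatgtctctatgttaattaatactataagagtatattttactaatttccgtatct

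JAZ3, chr3:6119457-6119706, plus strand: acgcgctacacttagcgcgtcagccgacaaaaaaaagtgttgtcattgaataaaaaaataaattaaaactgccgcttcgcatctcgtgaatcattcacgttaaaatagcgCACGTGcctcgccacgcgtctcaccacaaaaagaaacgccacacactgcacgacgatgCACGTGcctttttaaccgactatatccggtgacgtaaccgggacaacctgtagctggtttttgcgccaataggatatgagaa

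JAZ7, chr2:14572780-14573029, plus strand: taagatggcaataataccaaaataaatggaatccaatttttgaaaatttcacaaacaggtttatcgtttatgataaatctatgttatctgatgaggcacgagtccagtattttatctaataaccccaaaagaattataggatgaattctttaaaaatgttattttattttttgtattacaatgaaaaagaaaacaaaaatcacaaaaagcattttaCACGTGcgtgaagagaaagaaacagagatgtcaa

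JAZ8, chr1:10596102-10596351, plus strand: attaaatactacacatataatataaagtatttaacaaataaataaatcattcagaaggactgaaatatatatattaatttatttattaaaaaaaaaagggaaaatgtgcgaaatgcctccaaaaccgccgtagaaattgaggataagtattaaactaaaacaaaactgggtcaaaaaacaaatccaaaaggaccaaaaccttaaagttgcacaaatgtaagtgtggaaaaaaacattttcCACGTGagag

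JAZ10, chr5:4218536-4218785, plus strand: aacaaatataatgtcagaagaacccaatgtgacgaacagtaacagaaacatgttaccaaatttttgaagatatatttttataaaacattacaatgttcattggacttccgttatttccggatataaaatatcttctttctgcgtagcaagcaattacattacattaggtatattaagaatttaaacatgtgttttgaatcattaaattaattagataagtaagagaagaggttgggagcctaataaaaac

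The first G-box of these windows lies 66 bases before the start in JAZ2, 140 in JAZ3, 34 in JAZ7 and 10 in JAZ8, and JAZ3 holds 2 copies. CACGTG was found in 4 of 10 member windows of 250 bases and in 6.49% of the 27443 such windows of annotated nuclear protein-coding genes. In windows of 1000 bases it was found in 8 of 10 members and in 14.8% of the protein-coding genes. CACATG, a G-box-like sequence, was searched on both strands. It was found in 2 of 10 members and 11.1% of the protein-coding genes at 250 bases. At 1000 bases it was found in 5 of 10 members and 37.7% of the protein-coding genes. JAZ10 held 1 CACATG match at 250 bases, left in lower case above, and 3 at 1000 bases, while JAZ4 held none. These matches describe the letters only.

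The libraries of the first 12 h set held 32306939 to 33747006 gene counts each, and those of the other 3 sets 14417942 to 22334743. The share that the counting assigned to no gene ranged over 2.58% to 5.78% in that first set and 48% to 49.6% in the others, so sets differ in more than day length. Leaf mesophyll genes (RBCS1A, RCA, LHCB1.3 and LHCB6) summed to 10480 to 61400 CPM (counts scaled to library size, with TMM factors over all 30 libraries), 5 floral organ genes to 0.691 to 8.82 CPM, and 4 secondary wall genes of stems to 36.3 to 116.2 CPM. CUE1 had a mean of 11.2 to 15.7 CPM in libraries labelled cue1 and 89.4 to 212.3 CPM in the other groups. HDA6 had 16.2 CPM in libraries labelled hda6 at 16 h against 25.5 CPM in their wild type, and 24.996 CPM against 28.2 CPM at 12 h. The wild types of the sal1 set and of the 16 h cue1 and msh1 set had 24.85 and 25.06 CPM. The HDA6 transcript thus does little to check the hda6 label at 12 h. SAL1 and MSH1 transcripts were higher in the libraries labelled with those names (206.5 and 26.7 CPM) than in any other group (at most 122.7 and 17.3 CPM), so the transcript does not check those labels, and the directions given below for sal1 and msh1 rest on the labels.

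The members differed widely in level. On the scale of CPM per kb of exonic bases, JAZ9, whose protein serves as the sensor of a common jasmonate reporter, was the highest in all 10 groups, and in all 10 no library of it overlapped the next member. JAZ9 made up 37.4% to 56.5% of the summed per-kb level of the 10 genes, by group mean. JAZ6, described in Arabidopsis for a part in daily changes of resistance to a fungus, and JAZ2, known for its action in guard cells, followed it in all 10 groups, with 13.7% to 27.9% and 12.9% to 22.7%. Their per-kb values overlapped in the wild types of the 12 h cue1 and hda6 set, the sal1 set and the 16 h cue1 and msh1 set. JAZ1, JAZ3, JAZ5 and JAZ10 came next, and JAZ4, JAZ7 and JAZ8 were in the last 3 places in all 10 groups, none with more than 0.907%.

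**Figure D1:**
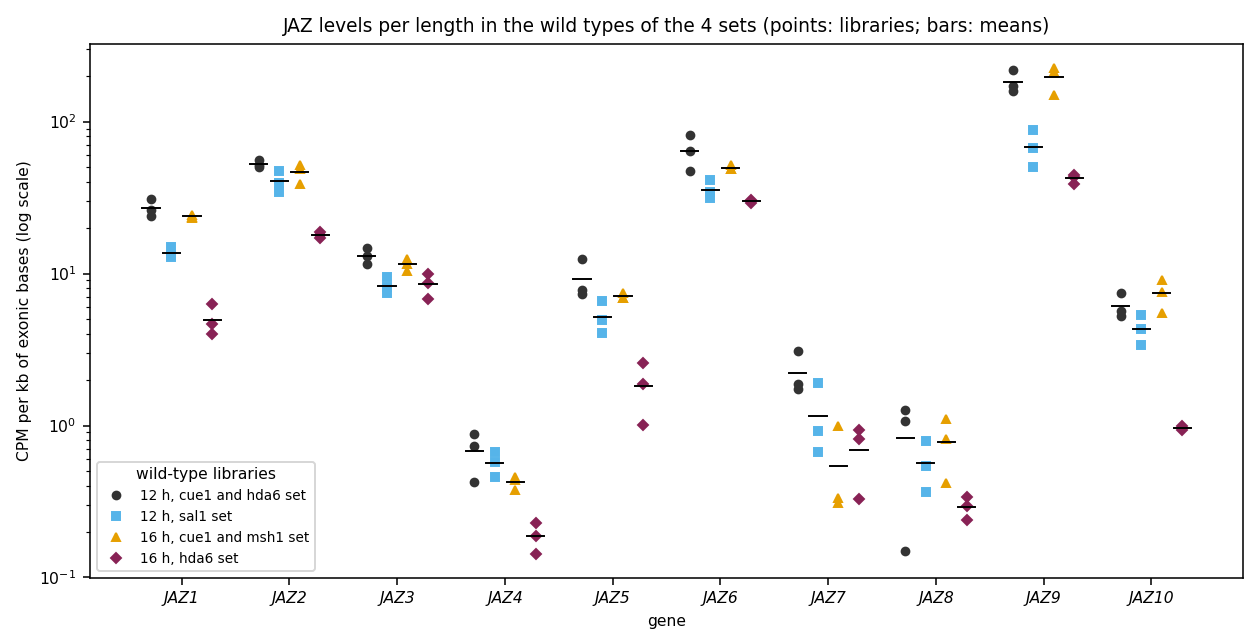
CPM per kb of exonic bases (log axis) of the 10 JAZ genes in the wild-type libraries of the 4 sets; points are libraries and bars are means of 3. JAZ9 is the highest in each set, JAZ4, JAZ7 and JAZ8 are the lowest, and the wild type of the 16 h hda6 set has the lowest mean for 8 of the 10 genes.

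In the wild type of the 12 h cue1 and hda6 set, the per-kb level was 182.9 ± 32.1 for JAZ9 (SD, n = 3, as for all levels below), 64.3 ± 17.3 for JAZ6, 52.6 ± 2.75 for JAZ2 and 27.0 ± 3.53 for JAZ1. It was 13.1 ± 1.63 for JAZ3, 9.19 ± 2.92 for JAZ5, 6.10 ± 1.15 for JAZ10, 2.23 ± 0.738 for JAZ7, 0.829 ± 0.598 for JAZ8 and 0.678 ± 0.229 for JAZ4. In that order the libraries of JAZ6 and JAZ2, of JAZ3 and JAZ5, of JAZ5 and JAZ10, and of JAZ8 and JAZ4 overlapped. The summed per-kb level of all 10 members was 358.9 ± 60.0 in this wild type, 178.3 ± 33.2 in the wild type of the sal1 set, 342.8 ± 46.6 in the wild type of the 16 h cue1 and msh1 set and 107.7 ± 2.81 in the wild type of the 16 h hda6 set. Among the mutants it ran from 94.4 ± 6.76 in hda6 at 16 h to 608.1 ± 201.1 in libraries labelled sal1. In these bulk samples, fewer cells of a type and less RNA per cell cannot be told apart.

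**Figure D2:**
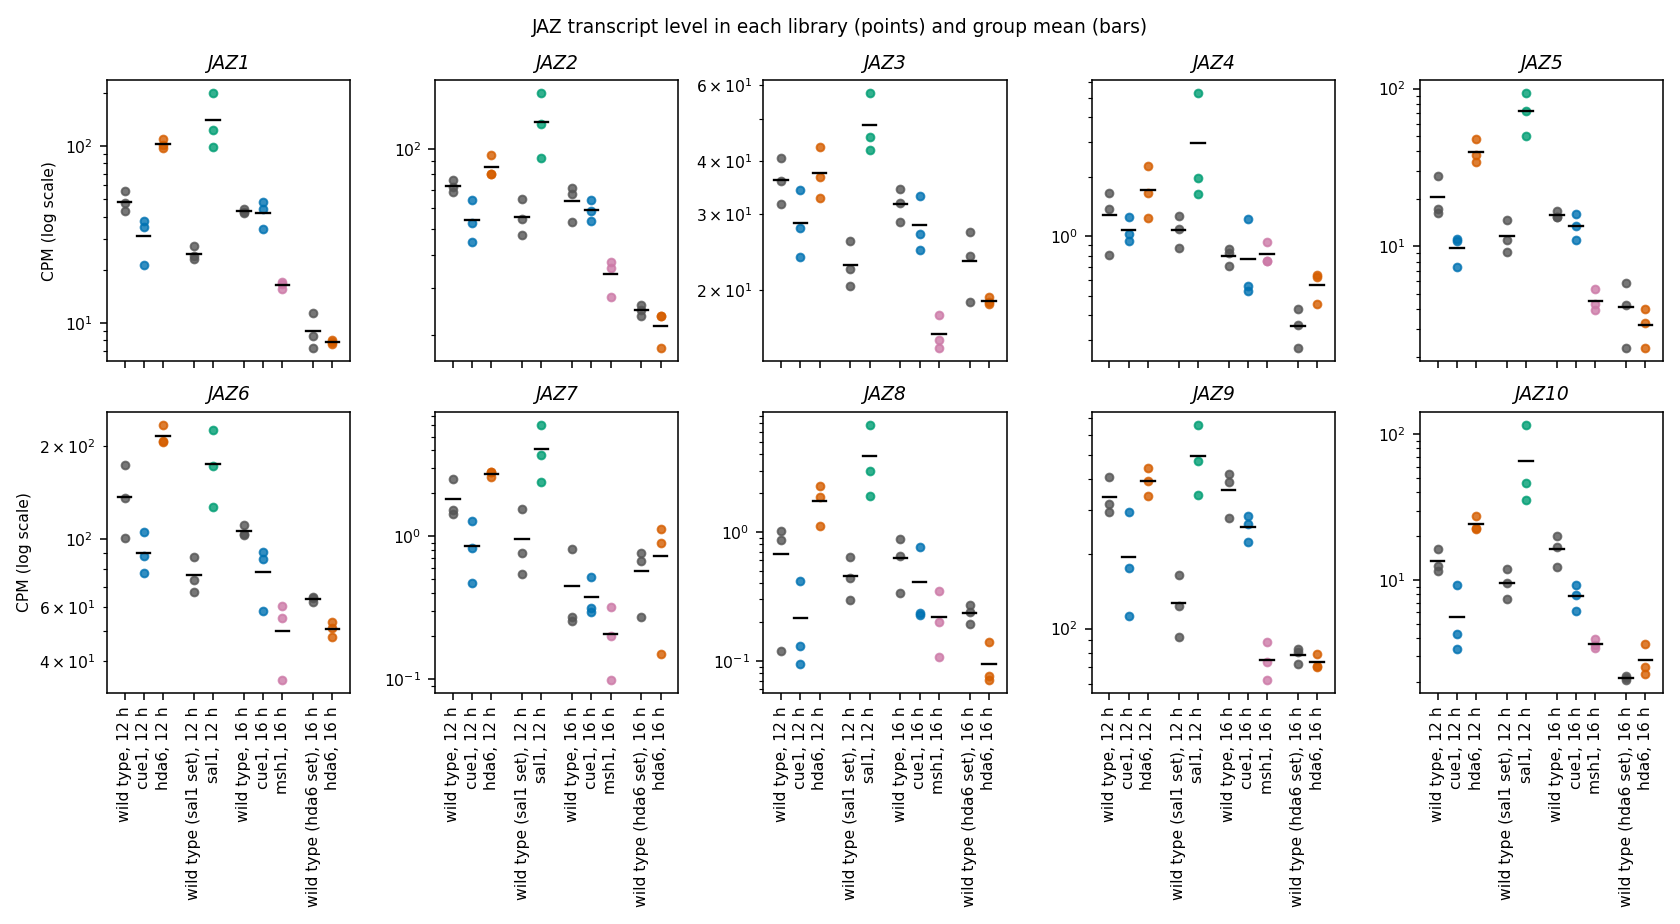
CPM (log axis) of each JAZ gene in each library (points) and group mean (bars), with the groups ordered by set. Libraries labelled sal1 lie above their wild type for all 10 genes, libraries labelled msh1 lie below theirs for JAZ1, JAZ2, JAZ3, JAZ5, JAZ6, JAZ9 and JAZ10, and both groups of the 16 h hda6 set lie low for most genes.

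The first comparison asks how JAZ transcripts stand in libraries labelled sal1; neither the phosphatase nor its substrate PAP was measured. All 10 members were higher in libraries labelled sal1 than in their wild type at 12 h, by 2.16-fold (JAZ3) to 8.87-fold (JAZ8), each at an adjusted p under 0.05 in edgeR's quasi-likelihood test, the criterion used for every call below. Without sal1 replicate 2 the log2 fold change was 2.48 in place of 3.15 for JAZ8 and 2.12 in place of 2.81 for JAZ10, and both calls remained. Of all 21845 genes tested in this set, 46.3% were called, 25% as higher. The median log2 fold change was 2.07 over the members and 0.01 over all genes tested. The members' libraries did not overlap between the groups for 10 of 10, against 30.6% of all genes with no overlap in this direction. The wild type of the other 12 h set can be set beside them as levels only. Libraries labelled sal1 lay above it for JAZ1, JAZ2, JAZ3, JAZ5, JAZ8 and JAZ10. They overlapped with it for JAZ4, JAZ6, JAZ7 and JAZ9 (JAZ9: 345.6 to 660.7 CPM against 293.0 to 406.3 CPM).

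JAZ1 had 23.1, 27.1 and 23.9 CPM in the 3 wild-type libraries and 98.2, 199.5 and 123 CPM in the libraries labelled sal1. The log2 fold change was 2.54 ± 0.25 (SE, as below; adjusted p = 0.000226). JAZ9, the member with the highest level, had 163.6, 123.7 and 92.8 CPM in the wild type and 345.6, 660.7 and 470.5 CPM in libraries labelled sal1. Every one of the latter lay above every wild-type library, and the log2 fold change was 1.99 ± 0.28 (adjusted p = 0.00111).

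JAZ10, whose transcript is spliced into several forms and whose loss makes roots more sensitive to jasmonate, went from 11.9, 7.46 and 9.51 CPM to 35.3, 116.5 and 46.3 CPM (2.81 ± 0.46, adjusted p = 0.0020). JAZ5, which acts with JAZ10 in limiting the response to the bacterial toxin coronatine, went from 14.8, 9.15 and 10.98 CPM to 49.97, 93.6 and 72.6 CPM (2.67 ± 0.27, adjusted p = 0.000219). The second of the libraries labelled sal1 was the highest and the first the lowest for each of these 4 genes. Over the 7 members tested in every set, the mean deviation from the group mean was 0.51 (log2) in the second and -0.47 in the first, the widest spread of any group.

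JAZ8, a repressor without the usual COI1-binding degron that can recruit TOPLESS by itself, is a low transcript. It had 0.634, 0.435 and 0.295 CPM in the wild type and 1.91, 6.81 and 2.98 CPM in libraries labelled sal1 (3.15 ± 0.57, adjusted p = 0.00327). JAZ7, which carries a similar repression motif, went from 1.56, 0.762 and 0.547 CPM to 2.42, 6.05 and 3.74 CPM (2.15 ± 0.47, adjusted p = 0.00771). For both, all mutant libraries lay above all wild-type libraries, at levels of a few CPM.

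JAZ2, JAZ3 and JAZ6 had the smallest log2 fold changes of the better-expressed members, 1.21 ± 0.21, 1.11 ± 0.14 and 1.24 ± 0.21 (adjusted p = 0.00274, 0.000771 and 0.00244). JAZ3 is the gene of a dominant jasmonate-insensitive allele. As shares of the summed per-kb level, JAZ1 had 7.88 ± 1.64% in the wild type and 12.7 ± 0.733% in libraries labelled sal1, and JAZ10 had 2.45 ± 0.474% and 4.59 ± 1.55%. JAZ4, which is known to restrain the cold regulator ICE1 together with JAZ1, had 1.27, 0.871 and 1.09 CPM against 1.64, 5.30 and 1.96 CPM (1.48 ± 0.49, adjusted p = 0.0386). The JAZ4 call was lost without wild-type replicate 1, 2 or 3 (adjusted p = 0.0675, 0.117 and 0.0956) and without sal1 replicate 2 (log2 fold change 0.77, adjusted p = 0.0953). The other 9 calls remained in each of the 6 fits that left out 1 library.

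Jasmonate genes beside the repressors also differed in these libraries. Of 12 jasmonate synthesis genes, 11 rose and 0 fell, with a median of 1.26; the lipoxygenases LOX4 (2.13 ± 0.17, adjusted p = 7.96e-05) and LOX3 (1.69 ± 0.17, adjusted p = 0.000253), which make the first oxygenated precursor, had the smallest adjusted p. Of 13 tested turnover and output genes, 12 rose, with a median of 2.98 over the 13. The cytochrome P450 genes CYP94B3 (4.72 ± 0.54, adjusted p = 0.000429) and CYP94B1 (3.56 ± 0.40, adjusted p = 0.000382), which oxidise the active hormone, were among them. The defensin gene PDF1.2, an output of the ethylene branch, fell (-2.60 ± 0.74, adjusted p = 0.0223).

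Of 18 perception and signalling genes, 11 rose and 3 fell. The transcription factor MYC2 rose (1.48 ± 0.16, adjusted p = 0.000356), as did the adaptor NINJA (0.48 ± 0.10, adjusted p = 0.00667). Of the repressors outside the 10 members, JAZ12 (0.96 ± 0.10, adjusted p = 0.00028), JAZ11 (0.39 ± 0.12, adjusted p = 0.0313) and AT3G22275, annotated as a jasmonate ZIM-domain protein (2.28 ± 0.60, adjusted p = 0.0165), all rose. The receptor COI1 had 40.8 CPM against 38.0 CPM and did not pass (0.13 ± 0.10, adjusted p = 0.299). MYC2 counts are uncertain, since 0.985 of its exonic bases are overlapped by a gene on the other strand and the strand setting of the counting is not given.

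Other genes differed in the same libraries. Rapid touch and wound genes summed to 409.2 to 580.5 CPM against 275.2 to 365.6 CPM in the wild type, and of 12 such genes 5 rose and 1 fell, including the calmodulin-like gene CML38 (4.00 ± 0.50, adjusted p = 0.000647) and MYB44 (1.197 ± 0.196, adjusted p = 0.00208; 0.484 of its exonic bases are overlapped on the other strand). Of 10 clock genes, 3 rose and 1 fell, with CCA1 at 1.46 ± 0.21 (adjusted p = 0.00112) and TOC1 at -0.47 ± 0.08 (adjusted p = 0.00228). Leaf mesophyll genes summed to 10480 to 14600 CPM in libraries labelled sal1 and 15990 to 24290 CPM in their wild type. In that list 2 of 4 fell, RCA (-1.12 ± 0.20, adjusted p = 0.0031) and RBCS1A (-1.27 ± 0.26, adjusted p = 0.0051). Floral organ genes summed to 1.77 to 2.86 CPM against 0.691 to 1.198 CPM, with PI called among the 2 tested (5.30 ± 1.12, adjusted p = 0.00636). Stem wall genes summed to 58.6 to 67.9 CPM against 69.3 to 116.2 CPM, with CESA8 called lower (-0.58 ± 0.20, adjusted p = 0.0468; 0.168 of its exonic bases are overlapped). The part of these genes in the JAZ result was not tested.

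**Figure D3:**
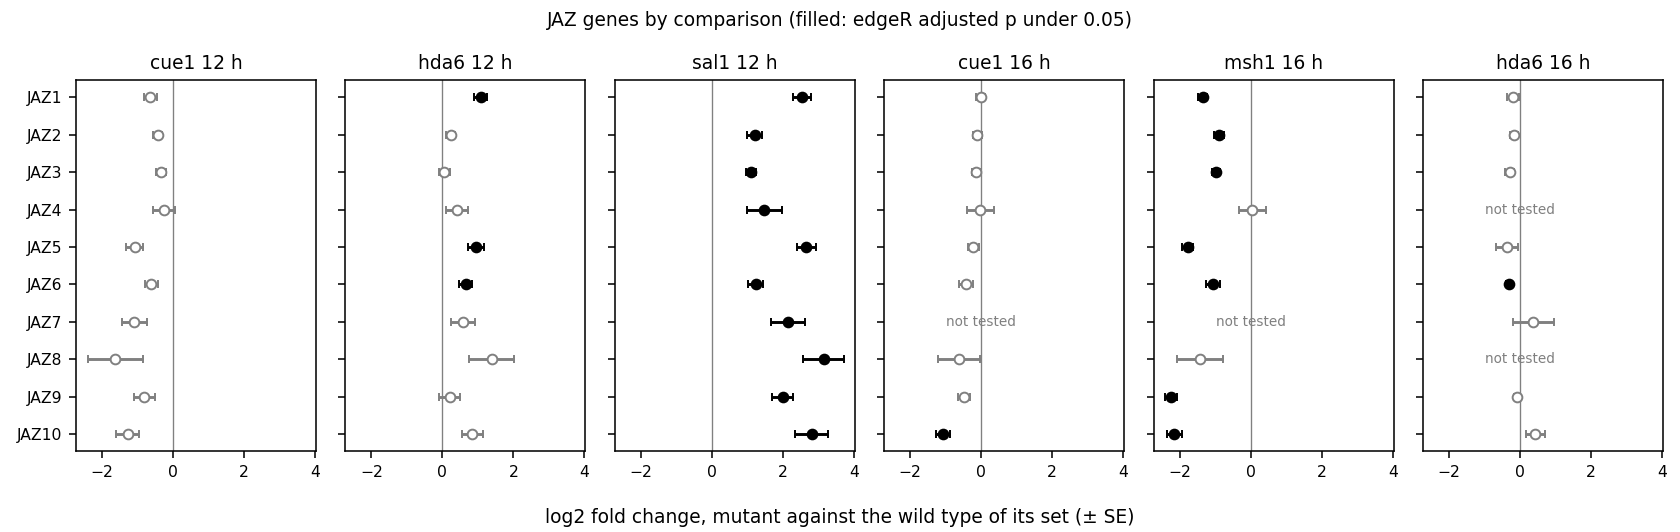
Log2 fold change ± SE of each JAZ gene in the 6 comparisons of a mutant with the wild type of its set; filled points passed an adjusted p of 0.05 in edgeR. All 10 points lie to the right and are filled in sal1, 7 of 9 are filled to the left in msh1, and 3 of 10 are filled to the right in hda6 at 12 h.

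The msh1 comparison at 16 h concerns a gene whose product acts in both organelles. Of 9 members tested, 7 fell in libraries labelled msh1 (JAZ1, JAZ2, JAZ3, JAZ5, JAZ6, JAZ9 and JAZ10), by 1.86-fold (JAZ2) to 4.75-fold (JAZ9). Of 20785 genes tested, 33.4% were called, 16% as lower. The median was -1.35 over the 9 tested members and 0.00887 over all genes. Those 7 members showed no overlap between the groups, against 23.7% of all genes with no overlap in this direction. JAZ7 did not pass the filter on low counts in this set.

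JAZ9 had 416.7, 390.2 and 278.3 CPM in the wild type and 62.0, 88.7 and 73.4 CPM in libraries labelled msh1. The lowest wild-type library was above 3 times the highest msh1 library, and the log2 fold change was -2.25 ± 0.18 (adjusted p = 6.89e-06). JAZ10 had 12.3, 16.8 and 20.2 CPM in the wild type and 3.57, 3.94 and 3.42 CPM in libraries labelled msh1 (-2.14 ± 0.21, adjusted p = 3.43e-05). JAZ5 had 15.4, 16.7 and 15.4 CPM against 3.92, 5.32 and 4.32 CPM (-1.78 ± 0.16, adjusted p = 2e-05). For each of these genes the groups were far apart compared with the spread inside them.

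JAZ1, the repressor whose dominant form blocks the response, had 42.1, 44.1 and 42.6 CPM against 17.1, 16.7 and 15.6 CPM (-1.35 ± 0.12, adjusted p = 1.79e-05). JAZ6 had 103.0, 110.8 and 103.6 CPM against 60.6, 55.3 and 34.8 CPM (-1.05 ± 0.20, adjusted p = 0.00192). JAZ2 and JAZ3 fell by 0.89 ± 0.14 and 0.98 ± 0.12 on the log2 scale (adjusted p = 0.000547 and 0.000173). The 7 calls remained in each of the 6 fits that left out 1 library.

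Of the remaining members, JAZ8 had 0.654, 0.889 and 0.336 CPM in the wild type and 0.201, 0.345 and 0.107 CPM in libraries labelled msh1, values that overlapped (-1.43 ± 0.65, adjusted p = 0.114). JAZ4 had means of 0.799 and 0.813 CPM (0.05 ± 0.39, adjusted p = 0.936). JAZ7 had 26 counts over the 3 wild-type libraries and 12 over the 3 libraries labelled msh1. At these levels counting error is a large part of each value. With JAZ9 falling the most, its share of the summed per-kb level was 56.5 ± 4.19% in the wild type and 37.4 ± 5.72% in libraries labelled msh1.

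Jasmonate synthesis genes fell in 11 of 12 cases (median -1.31), among them the cyclase gene AOC1 (-3.28 ± 0.30, adjusted p = 1.96e-05) and the reductase gene OPR3 (-1.33 ± 0.13, adjusted p = 3.02e-05). Turnover and output genes fell in 12 of 13 cases (median -3.26), among them the storage protein gene VSP2 (-3.26 ± 0.27, adjusted p = 1.18e-05) and the amidohydrolase gene ILL6 (-1.67 ± 0.14, adjusted p = 1.27e-05). Of 17 tested perception and signalling genes, 9 fell and 0 rose. They included COI1 (-0.29 ± 0.08, adjusted p = 0.0145), MYC2 (-1.30 ± 0.15, adjusted p = 7.8e-05), its relative MYC4 (-0.97 ± 0.14, adjusted p = 0.000314) and JAZ12 (-0.61 ± 0.12, adjusted p = 0.0020). NINJA (-0.10 ± 0.08, adjusted p = 0.349) and JAZ11 (-0.16 ± 0.12, adjusted p = 0.347) did not pass, and AT3G22275 was not tested.

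Clock genes also differed in libraries labelled msh1: their sum was 850.9 to 929.2 CPM against 667.2 to 737.5 CPM, 6 of 10 rose and 4 fell, with FKF1 at 2.90 ± 0.10 (adjusted p = 2.1e-08) and CCA1 at -5.09 ± 0.19 (adjusted p = 3.06e-08). Rapid touch and wound genes rose in 2 of 12 cases and fell in 3, with ERF104 at 1.24 ± 0.24 (adjusted p = 0.00251) and MYB44 at -1.05 ± 0.13 (adjusted p = 0.000128). Floral organ genes summed to 7.84 to 8.82 CPM against 1.58 to 2.86 CPM, and 3 of 5 rose, among them SEP3 (3.48 ± 0.52, adjusted p = 0.000479) and AP3 (3.20 ± 0.75, adjusted p = 0.00707). Leaf mesophyll genes summed to 35590 to 40700 CPM against 40160 to 47300 CPM, and 2 of 4 fell, RCA (-0.56 ± 0.17, adjusted p = 0.0228) and LHCB6 (-0.60 ± 0.18, adjusted p = 0.0266; 0.204 of its exonic bases are overlapped). The part of these genes in the JAZ result was not tested.

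The hda6 comparisons bear on a histone deacetylase that has been described as a partner of JAZ proteins in Arabidopsis. At 12 h, 3 of 10 members rose in libraries labelled hda6: JAZ1 by 2.12-fold, JAZ5 by 1.94-fold and JAZ6 by 1.58-fold. Of 20649 genes tested, 42% were called, 22.4% as higher, so a share of 3 in 10 is close to the background. The median was 0.62 over the members and -0.0047 over all genes, and 10 of 10 fold changes were above 0. For 7 members the libraries did not overlap, against 28.7% of all genes in this direction.

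JAZ1 had 42.9, 55.5 and 47.5 CPM in the wild type and 102.1, 109.8 and 98.1 CPM in libraries labelled hda6 (1.09 ± 0.18, adjusted p = 0.00198). JAZ5 had 16.3, 28.1 and 17.3 CPM against 47.5, 37.7 and 34.3 CPM (0.95 ± 0.23, adjusted p = 0.00983). JAZ6 had 100.6, 174.1 and 135.8 CPM against 234.9, 206.3 and 207.2 CPM (0.66 ± 0.18, adjusted p = 0.0184). For all 3 the lowest hda6 library was above the highest wild-type library, which was wild-type replicate 2 each time. The JAZ6 call was lost without wild-type replicate 3 (0.63, adjusted p = 0.0674).

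JAZ10 was just outside the threshold, with 11.6, 16.4 and 12.51 CPM against 27.7, 22.4 and 22.8 CPM (0.85 ± 0.31, adjusted p = 0.0502), and passed it without wild-type replicate 2 (1.01, adjusted p = 0.0496). JAZ8 had 0.120, 1.03 and 0.859 CPM against 1.11, 1.85 and 2.27 CPM (1.39 ± 0.64, adjusted p = 0.107). JAZ9, JAZ3 and JAZ2 had log2 fold changes of 0.21 ± 0.29, 0.05 ± 0.15 and 0.23 ± 0.12 (adjusted p = 0.589, 0.792 and 0.159). JAZ4 and JAZ7 had 0.42 ± 0.31 and 0.58 ± 0.33 (adjusted p = 0.306 and 0.176). Fitted in 1 model with all 30 libraries, 5 members passed (JAZ1, JAZ5, JAZ6, JAZ8 and JAZ10), with 39.9% of all 22759 genes called, 20.7% as higher.

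Rapid touch and wound genes were higher in the same libraries: 10 of 12 rose, with a median of 1.74, and the list's summed level was 506 to 665.1 CPM against 257.4 to 308.8 CPM in the wild type. CML38 (2.09 ± 0.20, adjusted p = 0.000145) and WRKY40 (1.76 ± 0.22, adjusted p = 0.000562) had the smallest adjusted p. Clock genes rose in 6 of 10 cases and fell in 3, with LHY at -2.51 ± 0.17 (adjusted p = 1.87e-05) and CCA1 at -2.85 ± 0.21 (adjusted p = 3.82e-05). The part of the touch and clock genes in the JAZ result was not tested. Floral organ genes summed to 2.34 to 3.34 CPM against 1.53 to 1.76 CPM, with PI (2.08 ± 0.57, adjusted p = 0.0176) and SEP1 (2.31 ± 0.73, adjusted p = 0.0313; 0.358 of its exonic bases are overlapped) called among 4 tested. Of the leaf mesophyll genes LHCB6 fell (-0.75 ± 0.16, adjusted p = 0.00639).

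In the jasmonate lists, 5 of 12 synthesis genes rose at 12 h in hda6, among them AOC1 (0.95 ± 0.28, adjusted p = 0.0225) and AOC3 (0.83 ± 0.24, adjusted p = 0.0225). Of 13 tested turnover and output genes, 5 rose, among them JRG21, a 2-oxoglutarate-dependent oxygenase gene (1.84 ± 0.19, adjusted p = 0.000201), and the amidohydrolase gene IAR3 (0.81 ± 0.16, adjusted p = 0.00404). Of 18 perception and signalling genes, 9 rose and 2 fell. JAV1, a repressor that acts beside the JAZ proteins (1.62 ± 0.16, adjusted p = 0.000174), MYC2 (0.59 ± 0.18, adjusted p = 0.0244) and JAZ12 (0.39 ± 0.08, adjusted p = 0.00448) rose. NIG1, also called MYC5, fell (-2.25 ± 0.43, adjusted p = 0.00355). COI1 (0.21 ± 0.08, adjusted p = 0.0625), NINJA (0.11 ± 0.06, adjusted p = 0.172), JAZ11 (-0.21 ± 0.13, adjusted p = 0.226) and AT3G22275 (-0.02 ± 0.59, adjusted p = 0.985) did not pass.

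At 16 h, 1 of 8 members tested was called in libraries labelled hda6, JAZ6, which fell. Of 20495 genes tested, 8.02% were called, 3.52% as lower. JAZ6 had 64.4, 64.9 and 62.4 CPM in the wild type and 51.4, 53.6 and 48.0 CPM in hda6 (-0.32 ± 0.08, adjusted p = 0.0291). The groups did not overlap for JAZ6 nor, in the other direction, for JAZ10, against 13.5% of all genes in each direction. The call was lost without wild-type replicate 1 or 2 (adjusted p = 0.0521 and 0.0841), without hda6 replicate 1 or 3 (adjusted p = 0.105 and 0.138), and in 1 model with all 30 libraries (adjusted p = 0.407). Without wild-type replicate 1, JAZ3 was called instead (-0.43, adjusted p = 0.0246).

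Both groups of this set had low JAZ levels. JAZ1 had 7.19, 11.3 and 8.41 CPM in the wild type and 8.03, 7.77 and 7.63 CPM in hda6, values that overlapped (-0.19 ± 0.17, adjusted p = 0.569). JAZ10 had 2.06, 2.12 and 2.19 CPM against 3.67, 2.54 and 2.27 CPM, and JAZ9 had 80.2, 72.3 and 83.1 CPM against 70.1, 79.1 and 70.6 CPM. The fold changes of the 7 members not called lay between -0.36 (JAZ5) and 0.42 (JAZ10), with JAZ2 at -0.18 ± 0.12, JAZ3 at -0.29 ± 0.13 and JAZ7 at 0.37 ± 0.57. JAZ4 and JAZ8 did not pass the filter, and JAZ8 had 13 counts over 3 wild-type libraries and 4 over 3 hda6 libraries.

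In this comparison 6 of 12 synthesis genes fell, among them AOC2 (-0.47 ± 0.10, adjusted p = 0.00495) and AOC1 (-0.44 ± 0.10, adjusted p = 0.00972). Of 11 tested turnover and output genes, 1 fell, the aminotransferase gene TAT3 (-0.83 ± 0.21, adjusted p = 0.0225). Of 16 tested perception and signalling genes, 1 fell, JAZ11 (-0.87 ± 0.16, adjusted p = 0.00226). COI1 (adjusted p = 0.81), MYC2 (0.463), NINJA (0.525) and JAZ12 (0.303) did not pass, and AT3G22275 was not tested. Touch and wound genes fell in 2 of 12 cases, TCH3 (-0.47 ± 0.09, adjusted p = 0.00263; 0.202 of its exonic bases are overlapped) and WRKY46 (-0.80 ± 0.24, adjusted p = 0.0493). Clock genes fell in 3 of 10 cases, among them CCA1 (-1.24 ± 0.09, adjusted p = 4.49e-08) and LHY (-1.23 ± 0.12, adjusted p = 3.54e-06).

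The hda6 effect was then compared between day lengths as an interaction over 4 groups. It was lower at 16 h for 3 of 10 members, JAZ1 (-1.27 ± 0.20, adjusted p = 0.00131), JAZ6 (-0.97 ± 0.21, adjusted p = 0.00601) and JAZ5 (-1.31 ± 0.43, adjusted p = 0.0400). Of 21913 genes tested, 25.8% were called, 12.9% in this direction. JAZ2 lay just outside (-0.41 ± 0.15, adjusted p = 0.0598), and JAZ8, with the largest estimate, did not pass (-2.61 ± 1.16, adjusted p = 0.113). JAZ3 (-0.35 ± 0.19), JAZ4 (0.28 ± 0.55), JAZ7 (-0.21 ± 0.67), JAZ9 (-0.30 ± 0.18) and JAZ10 (-0.42 ± 0.27) did not pass either. The calls of JAZ1 and JAZ6 remained in each of the 12 fits that left out 1 library, and JAZ9 was called once, without 12 h wild-type replicate 2 (-0.43, adjusted p = 0.0481).

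The JAZ5 call remained in 4 of the 12 fits that left out 1 library. It was lost without 12 h wild-type replicate 1 or 3 (adjusted p = 0.0656 and 0.0827), 12 h hda6 replicate 1 or 2 (0.0642 and 0.0584), 16 h wild-type replicate 1 or 2 (0.0725 and 0.132), or 16 h hda6 replicate 2 or 3 (0.0757 and 0.111). Day length, set, depth and the share of unassigned entries cannot be told apart in this comparison. The touch and wound genes were lower by the same test in 11 of 12 cases (median -1.83), among them TCH3 (-1.57 ± 0.19, adjusted p = 0.000322) and ZAT10 (-2.53 ± 0.34, adjusted p = 0.000579), and their part in the JAZ difference was not tested. Clock genes were called in 7 of 10 cases, 3 of them higher, with CCA1 at 1.62 ± 0.20 (adjusted p = 0.000355) and TOC1 at -0.88 ± 0.15 (adjusted p = 0.0017).

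In the jasmonate lists 7 of 12 synthesis genes were lower by the interaction, among them AOC1 (-1.39 ± 0.23, adjusted p = 0.00152) and AOC2 (-0.95 ± 0.19, adjusted p = 0.00389). Lower values were also found for 5 of 13 turnover and output genes, among them JRG21 (-3.54 ± 0.46, adjusted p = 0.000465) and IAR3 (-1.11 ± 0.16, adjusted p = 0.00068). Of 18 perception and signalling genes, 8 were lower, among them JAV1 (-1.996 ± 0.231, adjusted p = 0.000261), MYC3 (-0.68 ± 0.11, adjusted p = 0.00147), MYC2 (-0.72 ± 0.15, adjusted p = 0.00538), JAZ12 (-0.56 ± 0.13, adjusted p = 0.00758) and JAZ11 (-0.67 ± 0.21, adjusted p = 0.0366). COI1, NINJA and AT3G22275 did not pass (adjusted p = 0.1003, 0.136 and 0.865). LHCB6 was higher (0.87 ± 0.22, adjusted p = 0.0132).

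The cue1 mutant lacks much of the phosphoenolpyruvate supply of the plastid. At 12 h edgeR called 0 of 10 members, with 7 at an unadjusted p under 0.05, while DESeq2 called 5 as lower (JAZ1, JAZ2, JAZ5, JAZ6 and JAZ10) and 5.44% of the 21263 genes it tested, 2.25% as lower. Of 20649 genes tested by edgeR, 1.85% were called, and 3374 had an unadjusted p under 0.05. All 10 log2 fold changes were below 0, from -0.25 (JAZ4) to -1.62 (JAZ8), with a median of -0.73 against -0.00126 over all genes tested. On the scale of the fit, which takes TMM factors from this set alone, the groups did not overlap for 6 members, against 9.41% of all genes with no overlap in this direction. On the CPM scale printed here they did not overlap for 5, since JAZ9 overlaps narrowly; this is the 1 comparison in which the scales differ for a member.

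The members nearest the threshold were JAZ5 and JAZ10. JAZ5 had 16.3, 28.1 and 17.3 CPM in the wild type and 11.1, 7.37 and 10.9 CPM in cue1 (-1.07 ± 0.24, adjusted p = 0.0573). JAZ10 had 11.6, 16.4 and 12.51 CPM against 9.22, 3.34 and 4.26 CPM (-1.27 ± 0.32, adjusted p = 0.0874). Every cue1 library of both genes lay below every wild-type library. Without cue1 replicate 1, JAZ10 was called (-1.83, adjusted p = 0.0176), and in 1 model with all 30 libraries JAZ5 and JAZ10 were called (adjusted p = 0.0203 and 0.0437), with 2.88% of all genes called in that model.

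JAZ9 had 293, 406.3 and 317.9 CPM in the wild type and 174.6, 112.3 and 293.3 CPM in cue1, so that on this scale the highest cue1 library reached the lowest wild-type library (-0.81 ± 0.29, adjusted p = 0.207). JAZ1 and JAZ2 had -0.64 ± 0.18 and -0.43 ± 0.13 (adjusted p = 0.123 and 0.125), JAZ6 and JAZ7 had -0.60 ± 0.18 and -1.09 ± 0.35 (adjusted p = 0.141 and 0.159), and JAZ3 had -0.33 ± 0.15 (adjusted p = 0.31). The second cue1 library was the lowest for each of the 7 members tested in every set, with a mean deviation of -0.41 (log2) from its group. Without wild-type replicate 2 and cue1 replicate 3, a choice made after seeing the data, edgeR called 0 of 10 members and the fold changes ran from -0.12 (JAZ4) to -1.19 (JAZ7).

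Among related genes at 12 h, 3 of 13 turnover and output genes fell in cue1, among them JRG21 (-1.31 ± 0.19, adjusted p = 0.0163) and CYP94C1 (-1.13 ± 0.17, adjusted p = 0.0165), another hormone-oxidising P450. Of the synthesis genes 0 of 12 were called by edgeR, with 7 at an unadjusted p under 0.05, and of the perception and signalling genes 0 of 18, with 2. Over all 20649 genes tested, 3374 had an unadjusted p under 0.05. COI1 (adjusted p = 0.566), MYC2 (0.421), NINJA (0.485), JAZ11 (0.986), JAZ12 (0.211) and AT3G22275 (0.259) did not pass. CML38 was the 1 touch and wound gene of 12 that fell (-1.61 ± 0.23, adjusted p = 0.015). Clock genes rose in 4 of 10 cases and fell in 3, with LHY at -3.01 ± 0.17 (adjusted p = 0.000111) and CCA1 at -2.61 ± 0.21 (adjusted p = 0.00119). Their part in the JAZ values was not tested.

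At 16 h, 1 of 9 members tested was called in cue1, JAZ10, which fell. Of 20785 genes tested, 6.75% were called, 3.42% as lower. JAZ10 had 12.3, 16.8 and 20.2 CPM in the wild type and 6.12, 9.33 and 7.89 CPM in cue1 (-1.07 ± 0.20, adjusted p = 0.00918). The groups did not overlap, and the call remained in each of the 6 fits that left out 1 library, but it was lost in 1 model with all 30 libraries (-1.08, adjusted p = 0.0567). JAZ9 had 416.7, 390.2 and 278.3 CPM against 223.3, 262.1 and 283.6 CPM (-0.48 ± 0.17, adjusted p = 0.111). It was called without wild-type replicate 3 (-0.63, adjusted p = 0.0369) and by DESeq2 (adjusted p = 0.0409), which called 9.56% of all genes.

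The other 7 tested members ran from -0.63 (JAZ8) to -0.02 (JAZ1 and JAZ4), with JAZ2 at -0.11, JAZ3 at -0.15, JAZ5 at -0.22 and JAZ6 at -0.42, and JAZ7 did not pass the filter. No overlap between groups was found for 2 members, JAZ6 and JAZ10, both lower in cue1, against 12.4% of all genes in this direction. JAZ1 had 42.1, 44.1 and 42.6 CPM in the wild type and 34.0, 44.0 and 48.1 CPM in cue1. Of 17 tested perception and signalling genes, 1 fell, MYC4 (-0.56 ± 0.13, adjusted p = 0.0318). COI1 (adjusted p = 0.717), MYC2 (0.719), NINJA (0.491), JAZ11 (0.823) and JAZ12 (0.954) did not pass, and AT3G22275 was not tested. Of 12 synthesis and 13 turnover and output genes edgeR called 0 and 0, with 2 and 6 at an unadjusted p under 0.05. Over all 20785 genes tested, 4824 had an unadjusted p under 0.05. Clock genes rose in 6 of 10 cases and fell in 3, with FKF1 at 2.83 ± 0.10 (adjusted p = 5.86e-08) and CCA1 at -3.52 ± 0.17 (adjusted p = 6.11e-07). RCA (-0.66 ± 0.17, adjusted p = 0.0386) and CESA4 (-0.52 ± 0.13, adjusted p = 0.039) also fell. The part of these genes in the JAZ values was not tested.

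Between day lengths, the cue1 effect differed for 0 of 10 members by edgeR, with 2 at an unadjusted p under 0.05, JAZ1 and JAZ5, and for 0 by DESeq2. Of 21163 genes tested, 0.794% were called, and 3333 had an unadjusted p under 0.05. The estimates ran from 0.18 ± 0.21 (JAZ3) to 0.99 ± 1.12 (JAZ8), and that of JAZ5 was 0.85 ± 0.31 (adjusted p = 0.224). JAZ1 had 0.62 ± 0.26, JAZ2 0.32 ± 0.20, JAZ4 0.23 ± 0.52, JAZ6 0.18 ± 0.28, JAZ7 0.82 ± 0.73, JAZ9 0.33 ± 0.40 and JAZ10 0.20 ± 0.46. Among the clock genes 2 of 10 were higher by this test, FKF1 (2.20 ± 0.15, adjusted p = 3.41e-05) and PRR5 (1.72 ± 0.18, adjusted p = 0.00127). COI1, MYC2, NINJA, JAZ11, JAZ12 and AT3G22275 did not pass, with adjusted p from 0.344 (NINJA) to 0.929 (JAZ11).

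**Figure D4:**
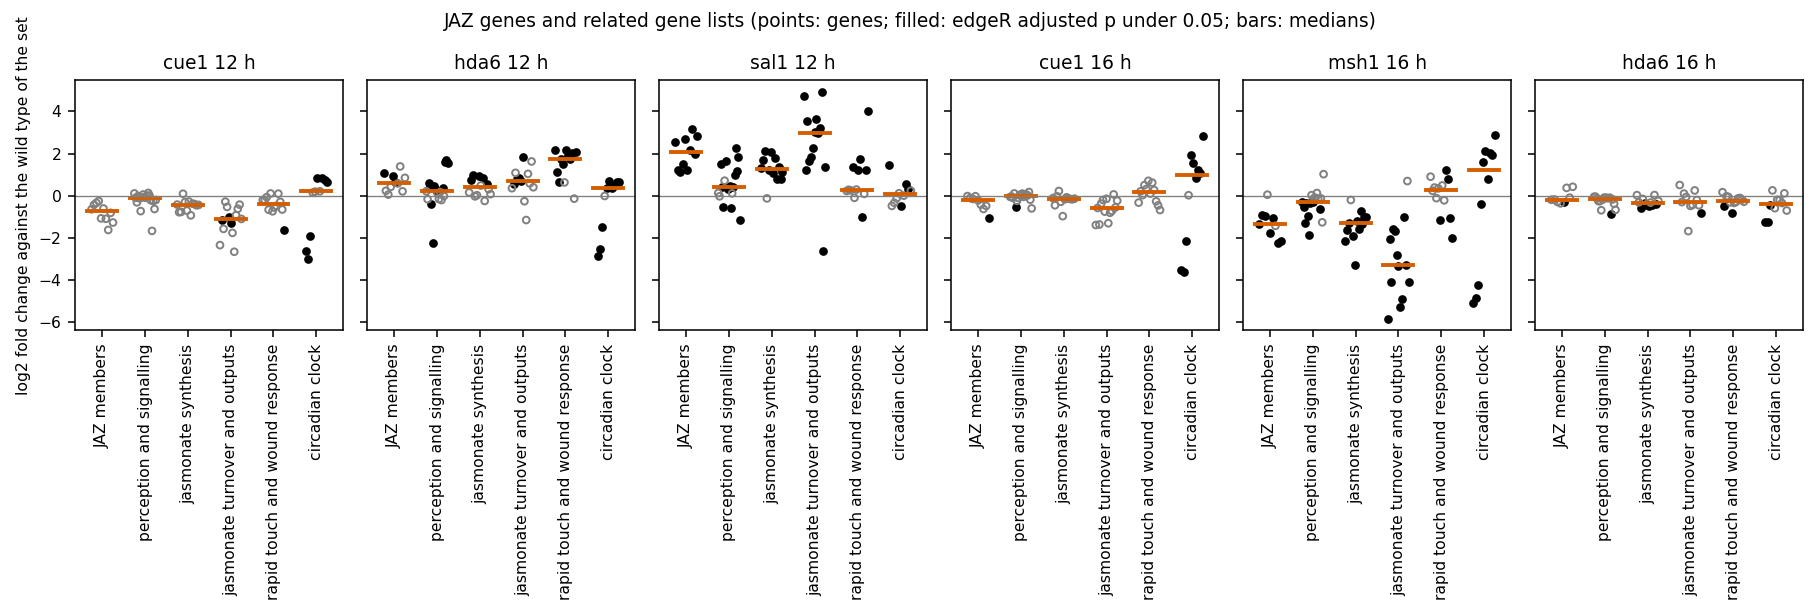
Log2 fold change of the JAZ genes and of 5 related gene lists in each mutant against the wild type of its set; points are genes, filled points passed an adjusted p of 0.05 in edgeR, and bars are medians. In sal1 and msh1 the JAZ genes lie on the same side as the synthesis and the turnover and output genes (medians 2.07, 1.26 and 2.98 in sal1, -1.35, -1.31 and -3.26 in msh1), and in hda6 at 12 h the touch and wound genes have the highest median (1.74).

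The wild types themselves differed between sets of the same day length. At 12 h, 6 of 10 members were lower in the wild type of the sal1 set than in that of the cue1 and hda6 set (JAZ1, JAZ2, JAZ3, JAZ5, JAZ6 and JAZ9). Of 20898 genes tested, 34% were called, 17% as lower. JAZ9 had 293, 406.3 and 317.9 CPM in the one and 163.6, 123.7 and 92.8 CPM in the other (-1.43 ± 0.22, adjusted p = 0.00193). JAZ1 had 42.9, 55.5 and 47.5 CPM against 23.1, 27.1 and 23.9 CPM (-0.99 ± 0.12, adjusted p = 0.000518). JAZ2 (-0.39 ± 0.12), JAZ3 (-0.66 ± 0.12), JAZ5 (-0.83 ± 0.25) and JAZ6 (-0.86 ± 0.20) were the others called, while JAZ4 (-0.26 ± 0.34), JAZ7 (-0.98 ± 0.43), JAZ8 (-0.58 ± 0.71) and JAZ10 (-0.50 ± 0.20) did not pass. The calls of JAZ1, JAZ3 and JAZ9 remained in each of 6 fits that left out 1 library. The groups did not overlap for the 6 called members, against 24.9% of all genes in this direction. The count was 3 without replicate 2 or replicate 3 of the sal1 set's wild type, 8 without its replicate 1 and 4 without replicate 2 of the other wild type. Over all genes, the 7104 calls became 5475, 4949, 6897 and 5782 in those fits, in that order.

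At 16 h, 7 of 9 members were lower in the wild type of the hda6 set than in that of the cue1 and msh1 set (JAZ1, JAZ2, JAZ3, JAZ5, JAZ6, JAZ9 and JAZ10). Of 20416 genes tested, 4419 (21.6%) were called in either direction, and 11.8% were called as lower. The 4419 became 2656 without replicate 2 of the cue1 and msh1 set's wild type. JAZ10 had 12.3, 16.8 and 20.2 CPM in the one and 2.06, 2.12 and 2.19 CPM in the other, a 7.66-fold difference (-2.94 ± 0.20, adjusted p = 4.73e-06). JAZ1 differed by 4.74-fold (-2.25 ± 0.14, adjusted p = 2.45e-06) and JAZ9 by 4.56-fold (-2.19 ± 0.14, adjusted p = 3.04e-06). JAZ2 (-1.36 ± 0.12), JAZ3 (-0.43 ± 0.13), JAZ5 (-1.93 ± 0.24) and JAZ6 (-0.71 ± 0.08) were the others called, JAZ4 (-1.15 ± 0.41, adjusted p = 0.0698) and JAZ7 (0.30 ± 0.57) did not pass, and JAZ8 was not tested. For 8 members the wild types did not overlap, JAZ4 with the 7, against 19.9% of all genes in this direction. JAZ3 lost its call without replicate 1 or 2 of either wild type (adjusted p = 0.113, 0.107, 0.123 and 0.0614), and the other 6 calls remained in each of the 6 fits that left out 1 library.

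Levels in the msh1 comparison and in this one share the wild type of the cue1 and msh1 set, so the values are set side by side only. JAZ1 had 42.9 ± 1.06 CPM in that wild type, 16.5 ± 0.767 CPM in libraries labelled msh1 and 8.98 ± 2.14 CPM in the wild type of the hda6 set. JAZ9 had 361.7 ± 73.5, 74.7 ± 13.4 and 78.5 ± 5.61 CPM in the same order. JAZ10 had 16.4 ± 3.96, 3.64 ± 0.271 and 2.12 ± 0.0655 CPM. Libraries labelled msh1 lay above this other wild type of the same day length for JAZ1, JAZ2, JAZ4 and JAZ10. They lay below it for JAZ3 (14.6 to 17.5 CPM against 18.8 to 27.2 CPM) and JAZ6 (34.8 to 60.6 CPM against 62.4 to 64.9 CPM). They overlapped with it for JAZ5, JAZ7, JAZ8 and JAZ9. Sets differ in any factor of growth, harvest or library making that the labels do not give, and these cannot be told apart.

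Other jasmonate genes differed between the wild types as well. At 12 h, 8 of 12 synthesis genes were lower in the sal1 set, among them AOS (-1.33 ± 0.17, adjusted p = 0.000726) and ACX1 (-0.77 ± 0.10, adjusted p = 0.00105), as were 9 of 13 turnover and output genes, among them AT5G05600 (-1.64 ± 0.20, adjusted p = 0.000546) and VSP2 (-3.12 ± 0.60, adjusted p = 0.00605). Of 18 perception and signalling genes 8 were lower and 1 higher, with MYC2 at -0.82 ± 0.12 (adjusted p = 0.00137) and JAM1, a MYC2-like repressor, at -0.57 ± 0.09 (adjusted p = 0.00216). NINJA, JAZ11 and JAZ12 were lower (adjusted p = 0.00953, 0.026 and 0.00617), and COI1 and AT3G22275 did not pass (adjusted p = 0.677 and 0.412). At 16 h, 11 of 12 synthesis genes were lower in the hda6 set, among them AOC1 (-3.47 ± 0.14, adjusted p = 1.27e-07) and AOC2 (-2.59 ± 0.15, adjusted p = 1.14e-06), as were 13 of 13 turnover and output genes, among them AT5G05600 (-3.19 ± 0.10, adjusted p = 5.88e-08) and AT2G38240 (-4.75 ± 0.22, adjusted p = 2.47e-07). Of 16 perception and signalling genes 8 were lower, with MYC2 at -1.75 ± 0.12 (adjusted p = 3.95e-06), JAZ12 at -0.83 ± 0.12 (adjusted p = 0.000673) and NINJA at -0.36 ± 0.09 (adjusted p = 0.0178). COI1 and JAZ11 did not pass (adjusted p = 0.424 and 0.989).

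Clock genes were called between the wild types in 8 of 10 cases at 12 h, 6 of them lower in the sal1 set (CCA1 -1.68 ± 0.15, adjusted p = 9.9e-05, and PRR9 -2.13 ± 0.24, adjusted p = 0.000386). They were called in 9 of 10 cases at 16 h, 7 of them lower in the hda6 set (PRR5 -3.10 ± 0.17, adjusted p = 1.09e-06, and FKF1 -4.35 ± 0.28, adjusted p = 2.48e-06). Touch and wound genes were called in 3 of 12 cases at 12 h (MYB44 -0.63 ± 0.09, adjusted p = 0.00172, and WRKY40 0.68 ± 0.19, adjusted p = 0.0263) and in 6 of 12 at 16 h (TCH3 0.93 ± 0.09, adjusted p = 4.76e-05, and ZAT10 -1.20 ± 0.18, adjusted p = 0.000701). Leaf, stem and floral genes were called in some cases: RCA -0.98 ± 0.20, LHCB6 -1.07 ± 0.27, CESA8 0.69 ± 0.20 and CESA4 0.62 ± 0.18 at 12 h, and RCA 0.53 ± 0.14, AG 1.23 ± 0.39, CESA8 -0.46 ± 0.13 and CESA4 -0.27 ± 0.09 at 16 h. The part of these genes in the JAZ differences was not tested.

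Across all 30 libraries, with each set centred on its own mean of log2 CPM, the 7 members tested in every set varied together. Each member's Pearson correlation with the mean of the other 6 ran from 0.886 (JAZ3) to 0.961 (JAZ5). Of 19160 genes, the 5 most like the mean of the 7 members were ILL6 (r = 0.964), MYC2 (0.961), OPR3 (0.959), AT5G05600, annotated as an oxygenase (0.955), and IAR3 (0.953). These are descriptions over 30 libraries that share sets, depths and the mutants themselves, and the value of MYC2 carries the strand overlap given above. In libraries labelled sal1 these 5 genes had log2 fold changes of 1.83, 1.48, 1.36, 2.27 and 1.65 in that order, and in libraries labelled msh1 -1.67, -1.30, -1.33, -2.79 and -1.59. The members had medians of 2.07 and -1.35 in the same libraries. Since the 5 genes were chosen by correlation with the members over libraries that include these, a shared direction follows from the choice.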

How the data were processed

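Leaf RNA was sequenced as read pairs. Trimming by the authors used Trim Galore 0.6.6 with cutadapt 2.8, and alignment to TAIR10 used STAR 2.7.10a, per the submitters' processing notes. The deposited values are raw gene counts, 1 table for each library. How reads were counted, with which strand setting, and from which library kit is not stated in the sources used here. The 5 totals that name no gene stayed out of library sizes.

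Models were fitted per set with edgeR 4.0.16 under R 4.3.3 (filterByExpr with a minimum count of 10, TMM factors, quasi-likelihood F test). Benjamini-Hochberg adjustment ran over all genes tested in a comparison, and called means an adjusted p under 0.05. The SE is the absolute log2 fold change divided by the square root of F. Interactions used 4 groups, and wild types of 2 sets were fitted together. Scripts were tested on simulated data. DESeq2 1.42.0, RLE scaling, no filter, a replicate block, 1 model of all libraries, only the 2 groups compared and leaving out each library were alternatives. Levels are CPM with TMM factors over all 30 libraries. Per-kb levels use the union of annotated exons (RefSeq, TAIR10.1).

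Replicates are full siblings, so p-values measure the spread between these siblings. The members and the gene lists were chosen with earlier results of these data known. All 10 members are named in each comparison, with those 2 called genes of every list whose adjusted p was lowest, COI1, MYC2, NINJA, JAZ11, JAZ12 and AT3G22275, and the 5 genes most like the members. The part of the exonic bases overlapped on the other strand is given where above 0.1.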

Additional observations from a re-analysis of the deposited data

Results flagged for a closer look

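The hda6 effect on 3 JAZ genes differed between day lengths by the interaction test: it was lower at 16 h than at 12 h by a log2 of -1.27 for JAZ1, -1.31 for JAZ5 and -0.97 for JAZ6 (edgeR adjusted p = 0.00131, 0.0400 and 0.00601). Of 21913 genes tested, 25.8% were called by this test, 12.9% in this direction. The JAZ5 call remained in 4 of 12 fits that left out 1 library. At 12 h the 3 genes were higher in libraries labelled hda6 than in their wild type (1.09, 0.95 and 0.66). At 16 h JAZ1 and JAZ5 did not pass (-0.19 and -0.36) and JAZ6 was lower (-0.32). The 16 h libraries come from another set with its own wild type, in which JAZ1 had a mean of 8.98 CPM against 48.6 CPM in the 12 h wild type, so day length and set cannot be told apart.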

How the results depend on the processing

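The counts of called members stayed within 1.5 times under RLE scaling and without the filter on low counts in all 10 comparisons. In cue1 at 12 h DESeq2 called 5 members and 1 model with all 30 libraries called 2, against 0; in cue1 at 16 h they called 2 and 0, against 1. With all 30 libraries the count was 5 in hda6 at 12 h (3) and 0 in hda6 at 16 h (1), with 39.9% and 5.52% of all genes called. Leaving out 1 library gave 0 to 1 called members in cue1 at 12 h, 2 to 4 in hda6 at 12 h, 9 to 10 in sal1, 1 to 2 in cue1 at 16 h, 7 in msh1, 0 to 1 in hda6 at 16 h, 2 to 4 in hda6 by day length, 3 to 8 between wild types at 12 h and 6 to 8 at 16 h. Counts over all genes in these fits also moved and are given below. The causes were not tested.

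Of 24 same-numbered pairs of libraries, 6 had a residual correlation over 0.1 (range -0.393 to 0.152). The range was 0.0749 to 0.152 in the sal1 set and 0.0343 to 0.114 in the 16 h hda6 set, with 3 pairs each. It was -0.393 to 0.129 in the 12 h cue1 and hda6 set and -0.157 to 0.0699 in the 16 h cue1 and msh1 set. So few pairs cannot decide whether same-numbered libraries share more than a number. With the replicate block, 9 members were called in sal1 (JAZ4 lost, adjusted p = 0.0648) and 8 in msh1 (JAZ8 gained, adjusted p = 0.0475). Between wild types 4 were called at 12 h and 6 at 16 h, and the pairing changed the count in no other comparison. Of all genes tested, the block called 47.6% in sal1 (46.3% without it) and 30.5% in msh1 (33.4%). Between wild types it called 26.7% of all genes at 12 h (34% without it) and 17.9% at 16 h (21.6%).

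Fold changes that turned sign belonged to members that were not called, and did so when 1 library was left out. Their ranges over those fits were -0.059 to 0.15 (JAZ3, hda6 at 12 h), -0.14 to 0.12 (JAZ1, cue1 at 16 h), -0.52 to 0.17 (JAZ4, cue1 at 16 h), -0.0675 to 0.12 (JAZ4, msh1), -0.33 to 0.026 (JAZ1, hda6 at 16 h) and -0.078 to 0.83 (JAZ7, hda6 at 16 h). In cue1 by day length they were -0.038 to 0.36 (JAZ6), -0.078 to 0.76 (JAZ10) and -0.28 to 0.47 (JAZ4), and in hda6 by day length -0.64 to 0.27 (JAZ7).

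Over all genes, the 381 calls of cue1 at 12 h became 1157 with DESeq2, 656 with all 30 libraries, 168 with the replicate block, 166 with only the 2 groups, 50 without wild-type replicate 2 and cue1 replicate 3 (chosen after seeing the data), and 32 to 303 without 1 library. The 1404 of cue1 at 16 h became 921 with only the 2 groups and 563 to 1685 without 1 library. The 1643 of hda6 at 16 h became 2743 with the replicate block and 930 to 2125 without 1 library. The 168 of cue1 by day length became 904 with DESeq2, 558 with all 30 libraries and 47 to 369 without 1 library. The 4419 between wild types at 16 h became 2656 to 4741 without 1 library, the lowest without replicate 2 of the cue1 and msh1 set's wild type. Without 1 library, the 8675 of hda6 at 12 h became 6134 to 8374 and the 10110 of sal1 became 8089 to 10221. The 6936 of msh1 became 5078 to 6903 and the 5658 of hda6 by day length 3900 to 6061. The 7104 between wild types at 12 h became 4949 to 6897. Fits without 1 library tested 20609 to 22500 genes. Depth limits JAZ4, JAZ7 and JAZ8, which had 4 to 305 counts per group.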
